A study of Mus musculus with 12 samples.

Results

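The control cortex transcriptome at embryonic day 15.5 was described from the 6 libraries labelled control among the 12 of the series, chosen by that label alone. Each was made from total RNA of micro-dissected mouse cerebral cortex, depleted of ribosomal RNA. Controls 1 to 4 came from litter 1 (control 1 female, controls 2, 3 and 4 male), and controls 5 (male) and 6 (female) came from litter 2, all under 1 batch label. The labels give the genotype only as control, and do not say whether these embryos carried Emx1-Cre or floxed alleles of Arid1a. The other 6 libraries, Emx1-Cre Arid1a conditional mutants of the same litters and age, are used below only to set a control value against them or as libraries that a ranking had not used. In those embryos Cre is driven from Emx1, which is active in progenitors of the dorsal telencephalon.

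At this age the mouse cortex is built by radial glia, which line the ventricle and divide to give intermediate progenitors and neurons. Newborn neurons migrate outwards past older ones, so that the deep layers form before the upper layers. Subplate neurons lie below the cortical plate and Cajal-Retzius cells at its surface. GABAergic interneurons are not born in the cortex and migrate in from the ganglionic eminences, which also give rise to the striatum beneath it.

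The control libraries held 1476478 (control 2) to 2815042 (control 4) gene counts, with 16010 to 17511 genes detected in each. Levels are given as CPM, the count of a gene scaled to the total gene count of its library, and 13742 genes reached a mean of 1 CPM, of which 12395 were protein coding and 1323 noncoding in the GENCODE M21 annotation. Coding genes took 95.3% ± 0.455 of counts (SD, n = 6). No pair of controls matched within counting error (chi-square per degree of freedom 3.72 to 12.7). Controls 2 and 3 stood apart in the summed interneuron and striatum lists, and control 5 in that of choroid plexus genes, as described below. In these bulk samples, more cells of a type and more RNA per cell cannot be told apart.

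The coding genes with the most counts were long genes of neuronal adhesion, wiring and gene control. Auts2, a neurodevelopmental regulator of transcription and the cytoskeleton, had the highest mean, 7846 ± 1215 CPM (SD, n = 6), with a lowest library of 6379, a median of 7875 and a highest of 9410. The RNA-binding protein gene Celf2 followed at 5946 ± 1079 CPM, then the receptor phosphatase gene Ptprd at 5786 ± 1069 CPM. Adhesion and synaptic organiser genes made up much of the remainder of the first 20: Tenm2, Ctnna2, Nrxn3, Lsamp, Dcc and Tenm4. Signalling and cytoskeletal genes were Nrg1, Nrg3, Frmd4a, Map1b and Nav3, the RNA-binding gene was Rbfox1, and the transcription regulators included Nfib, Tcf4, Sox5 and Setbp1.

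These 20 genes were not equally steady. Map1b, which encodes a microtubule-associated protein of growing axons, ranged from 2557 to 3089 CPM (median 2943) and Nrg1, a ligand of ErbB receptors, from 3372 to 4306 CPM (median 4037). Nrxn3, a presynaptic adhesion gene, had 2428, 7481, 5931, 2035, 2276 and 2665 CPM in controls 1 to 6. Controls 2 and 3 were thus above all others, and the remaining 4 lay close together. Tenm2, a teneurin adhesion gene, had 6653, 4299, 5387 and 7030 CPM in the litter 1 controls and 2985 and 2299 CPM in the litter 2 controls, with no overlap between the litters. The litters likewise did not overlap in 26.5% of the genes tested below. Tenm2 did not pass the litter test (edgeR adjusted p = 0.101).

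The order by plain CPM followed gene length. The 20 genes had a median span on the genome of 1020 kb, 19 of them above 300 kb, against a median of 29.0 kb over coding genes at 1 CPM or more. The 10% of coding genes with the longest span (2187 genes, the shortest of 110 kb) held 49.8% ± 1.56 of all counts (SD, n = 6). A gene that leads a list by CPM below is therefore the one with the most counts, and levels are compared between genes only per kilobase. Per kilobase of exon, 7 of the 20 remained among the first 20 coding genes, and per kilobase of gene span none of the 20 did. On the exon scale the leading coding genes were mt-Co1, a subunit of mitochondrial complex IV, at 1334 ± 169 CPM per kilobase, Rbfox1 at 772 ± 138, mt-Cytb at 588 ± 195, Ctnna2 at 570 ± 54.2 and Actb, cytoplasmic actin, at 420 ± 54.6.

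**Figure D1:**
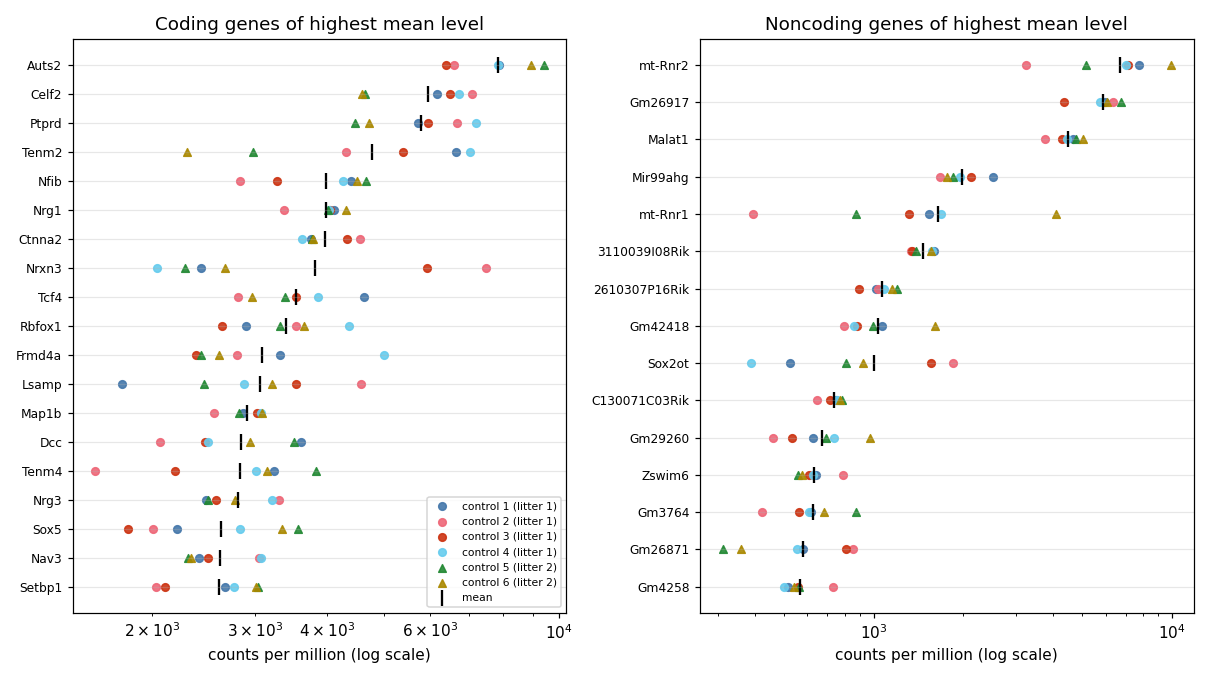
Level in each control library of 19 of the 20 coding genes (left) and the 15 noncoding genes (right) of highest mean, in CPM on a log axis. Circles are litter 1, triangles litter 2 and black ticks means. Nrxn3 and Sox2ot are highest in controls 2 and 3, Tenm2 is lowest in the litter 2 controls, and mt-Rnr1 runs from 393 in control 2 to 4097 in control 6.

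Among noncoding genes, counts were led by mitochondrial rRNA, by genes at the nuclear ribosomal repeat and by nuclear long noncoding RNA. The mitochondrial rRNA mt-Rnr2 had 7758, 3244, 7142, 7046, 5158 and 9947 CPM in controls 1 to 6. The other, mt-Rnr1, had 1537, 393, 1316, 1680, 876 and 4097 CPM, lowest in control 2 and highest in control 6 for both genes. Gm26917 had 5866 ± 825 CPM and Gm42418 1033 ± 299 CPM (SD, n = 6). Gm42418 (chromosome 17, 39846958 to 39848788, GRCm38) overlaps 1245 bases of the 18S ribosomal RNA repeat gene Rn18s-rs5 listed by RefSeq, and Gm26917 ends 12 bases short of it. Malat1, a nuclear-retained RNA of nuclear speckles, was steadier at 4494 ± 449 CPM, with a range of 3744 to 5045.

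Several of the next noncoding genes are host transcripts of microRNAs. Mir99ahg had 1978 ± 308 CPM and 3110039I08Rik 1463 ± 121 CPM, the latter between 1335 and 1592 in every control. C130071C03Rik had 736 ± 51.5 CPM and Gm3764 had 627 ± 148 CPM, and Mir9-3hg, further down the list, had 320 ± 79.7 CPM (SD, n = 6). Sox2ot, whose span contains Sox2, had 525, 1841, 1559, 388, 806 and 924 CPM in controls 1 to 6, again highest in controls 2 and 3. Gm26871 had 579, 855, 810 and 552 CPM in the litter 1 controls and 312 and 360 CPM in the litter 2 controls, without overlap. It did not pass the litter test below (edgeR adjusted p = 0.113). The remaining genes of the first 15 were 2610307P16Rik (1063 ± 110), Gm29260 (669 ± 179), Zswim6 (633 ± 81.7), which M21 types as a processed transcript, and Gm4258 (568 ± 82.3).

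MicroRNAs silence messenger RNAs chiefly through pairing of bases 2 to 8 of the mature strand, the seed. Of 44 noncoding genes at 100 CPM or more and longer than 1 kb, at least 14 contained microRNA hairpins on the same strand. These 14 held 22 of the hairpins searched, a set that was not shown to be complete. Mir124a-1hg, named as a microRNA host, had a mean of 224 CPM but was not among the 14. The mature sequences below (RefSeq, GRCm38.p6, seed in capitals) come from 6 of the first 15 noncoding genes and from Mir9-3hg. miR-9-5p and the pair miR-99a-5p and miR-100-5p are shown because different hosts carry the same microRNA or seed, miR-181a-5p and miR-181b-5p because they share a seed within 1 host, and the others as further microRNAs of leading hosts. The hosts 2610307P16Rik and Sox2ot, with 1 hairpin each, are not shown.
miR-9-5p: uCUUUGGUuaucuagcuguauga
miR-99a-5p: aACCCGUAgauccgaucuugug
miR-100-5p: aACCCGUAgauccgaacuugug
let-7c-5p: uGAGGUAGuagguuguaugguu
miR-125b-5p: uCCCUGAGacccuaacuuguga
miR-137-3p: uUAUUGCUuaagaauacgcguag
miR-181a-5p: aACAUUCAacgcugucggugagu
miR-181b-5p: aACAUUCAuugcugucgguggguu

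The same miR-9-5p, a microRNA known for its role in neural progenitors, is encoded in C130071C03Rik (hairpin on chromosome 13, 83738814 to 83738885), Gm3764 (chromosome 3, 88215598 to 88215686) and Mir9-3hg (chromosome 7, 79505264 to 79505353). The seed ACCCGUA is shared by miR-99a-5p of Mir99ahg and miR-100-5p of 3110039I08Rik, and ACAUUCA by miR-181a-5p and miR-181b-5p, both of Gm4258. Mir99ahg also contains let-7c, 3110039I08Rik contains miR-125b, and Gm26871 contains miR-137. The counts are of the host genes, and the mature microRNAs were not measured.

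The radial glia and intermediate progenitor lists had counts in every control, although Hes5 and Neurog1 were at 0 in control 2. Of 18 radial glia markers, 17 reached a mean of 1 CPM, Sox2 being at 0 in all controls. Gli3, a transcription factor of Hedgehog signalling, had 328 ± 94.8 CPM, Lhx2, a selector of cortical identity, 173 ± 55.5, Tnc, an extracellular matrix protein, 172 ± 92.9, and the intermediate filament gene Vim 170 ± 44.9 (SD, n = 6). Pax6, a determinant of cortical progenitors, had 70.8, 34.5, 59.7, 73.5, 89.4 and 89.4 CPM in controls 1 to 6. All 10 intermediate progenitor markers were above 1 CPM. Eomes, which defines these cells, had 87.5 ± 36.6 CPM with a lowest value of 24.4 in control 2, Insm1 62.4 ± 8.86 and Neurog2 32.0 ± 13.96. All 16 cell cycle markers passed 5 CPM, led by Ccnd2 at 305 ± 85.3 and Mki67 at 207 ± 108 CPM.

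Markers of newborn and young neurons summed to 10211 to 12687 CPM. Of these 16 genes, 14 were above 5 CPM, among them Map1b, the dendritic microtubule gene Map2 at 2106 ± 212 and the migration gene Dcx at 1088 ± 106 CPM (SD, n = 6). Neurod2, a factor of excitatory neurons, had 183 CPM on average. The other 2, Tubb3 and Neurod1, had a count of 0 in all controls. Both lie wholly inside the span of another gene on the same strand (Tubb3 in Gm20388, Neurod1 in Cerkl), as do Sox2 in Sox2ot, Pou3f3 in AC122898.1 and Sox1 in Sox1ot, which were likewise at 0. Of 439 coding genes placed in this way, 427 (97.3%) were at 0 in all controls, against 36.6% of the 11745 coding genes with no overlap. A value of 0 for these markers is thus no measure of their expression.

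The summed progenitor lists (radial glia and intermediate progenitors) over the summed neuron list gave a ratio of 0.198, 0.106, 0.138, 0.160, 0.218 and 0.209 in controls 1 to 6. Control 2 was lowest and control 5 highest. The sums are plain CPM, not per kilobase, and Sox2, Tubb3 and Neurod1 add nothing to them. The ratio therefore compares libraries, and its size is no measure of the balance of cells. The mean was 0.172 ± 0.0442 in controls and 0.209 ± 0.0447 in the mutants (SD, n = 6 each), a log2 difference of -0.30 for control minus mutant (two-sided exact permutation p = 0.206, adjusted over 2 ratios p = 0.279). The difference was -0.07 without controls 2 and 3 (exact permutation p = 0.729). Intermediate progenitor over radial glia counts gave 0.166 ± 0.0301 in controls and 0.183 ± 0.0249 in mutants (n = 6 each, exact permutation p = 0.279, adjusted p = 0.279). Litter was unevenly divided, with 4 controls and 2 mutants in litter 1 and 2 controls and 4 mutants in litter 2. In litter 1 the progenitor to neuron ratio was 0.106 to 0.198 in controls and 0.246 and 0.247 in mutants, without overlap (log2 difference -0.75). In litter 2 it was 0.209 and 0.218 in controls and 0.139 to 0.237 in mutants, with overlap (log2 difference 0.20). Both litter 1 mutants were female, at 643197 and 924066 gene counts, against 1476478 to 2815042 in the controls of that litter. The female control of that litter was the one at 0.198. In litter 2 the mutant at 0.139 was male, at 794716 gene counts, and the other mutants were female. Sex and depth were not part of these comparisons. With labels permuted within litter, the mean difference over litters was -0.27 (n = 6 each, exact permutation p = 0.289, adjusted over 2 ratios p = 0.578), and for the second ratio -0.07 (exact permutation p = 0.6, adjusted p = 0.6). Neither test passed 0.05, pooled or within litter, and whether the litters differed from each other in this was not tested. Controls 2 and 3, with the lowest ratios, also had the highest interneuron and striatum sums given below, whose part in the ratio was not tested.

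The layer 6, layer 5 and upper layer lists all had members above 5 CPM (12 of 12, 6 of 8 and 13 of 14). Whether their RNA came from those layers was not tested. The layer 6 list was led by Nfib (3982 ± 749 CPM), Sox5 (2627 ± 729), Nfia (2265 ± 698) and Hs3st4 (864 ± 276), and all 12 members passed 5 CPM. Tbr1, a determinant of layer 6 and subplate identity, had 146, 175, 167 and 176 CPM in litter 1 and 278 and 317 CPM in litter 2. In the layer 5 list, Bcl11b, a factor of subcerebral projection neurons, had 634 ± 169 CPM, Ldb2 479.5 ± 65.1 and Crim1 161 ± 29.5, while Rbp4 was under 1 CPM and Pcp4 at 0. The upper layer list was led by the guidance receptor genes Plxna4 (2051 ± 526) and Unc5d (1832 ± 204).

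Subplate genes are given in CPM, not corrected for length. Serpini1 had 179 ± 22.96 CPM, Tmem163 47.6 ± 14.02, Lpar1 45.4 ± 20.5 and Inpp4b 42.7 ± 25.5 (SD, n = 6). Nr4a2, a nuclear receptor of subplate neurons, had 30.7 ± 11.7 CPM, from 10.3 in control 4 to 44.7. Ccn2 (0.976 CPM) and Cplx3 (0.0678 CPM), which mark the mature subplate, were under 1 CPM on average and Moxd1 just above it at 1.11. Of the Cajal-Retzius list, Reln had 517 ± 151 CPM, and the other 8 members were at most 32.7 CPM on average, with Trp73 at 13.3 ± 8.66.

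The summed interneuron and striatum lists separated controls 2 and 3 from the rest, but not every member did. Dlx2 was highest in control 6, at 49.2 CPM against 44.7 and 30.6 CPM in controls 2 and 3, and so was Dlx5 (18.8 CPM). Lhx6 had 61.5 CPM in control 4 against 58.2 CPM in control 2. The summed interneuron list gave 1697, 3672, 3461, 1393, 1563 and 1747 CPM, and the striatum list 629, 1532, 1105, 608, 561 and 569 CPM in controls 1 to 6. Without controls 2 and 3 the means fell from 2255 ± 1025 to 1600 ± 159 CPM for interneurons and from 834 ± 400 to 591 ± 32.3 CPM for the striatum (SD, n = 6 and n = 4). Ebf1, a factor of striatal neurons, had 52.1, 730, 422, 39.1, 143 and 144 CPM, and Gad2, a GABA-synthesising enzyme, 73.2, 307, 240, 59.0, 97.4 and 122 CPM. All 20 interneuron and all 16 striatum markers reached a mean of 1 CPM, and 18 and 9 of them a mean of 5 CPM. Some of these means rested on controls 2 and 3: Isl1, Rxrg and Drd2 were under 1 CPM in controls 1 and 4. Interneurons that have entered the cortex are part of it, and the labels do not say where the dissection ended.

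Markers of other cell types were summed in the same way. Choroid plexus genes summed to 181 CPM in control 5 and 0.447 to 15.9 CPM in the other controls. Ttr, a thyroxine carrier made by that epithelium, supplied 164 CPM of the former. The meninges list was also highest in control 5, at 65.3 CPM against 18.8 to 29.8 CPM. Microglia genes summed to 23.8 to 46.1 CPM, endothelial genes to 77.2 to 109 CPM, pericyte genes to 50.5 to 70.5 CPM and red blood cell genes to 9.74 to 61.1 CPM. The cortical hem and hippocampus list, most of it Zbtb20, was highest in control 1 at 2969 CPM and lowest in control 6 at 1024 CPM. Thalamus genes summed to 373 to 634 CPM, most of it Rora (334 ± 61.8 CPM), with Gbx2 under 1 CPM and Foxb1 at 0. Oligodendrocyte precursor genes summed to 67.1 to 217 CPM, most of it Lhfpl3, and astrocyte genes to 76.9 to 283 CPM with Gfap and Aqp4 under 1 CPM. Jun supplied most of the immediate early list, and all 12 Hox genes, which pattern tissue behind the forebrain, were at 0, 4 of them placed inside another gene.

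**Figure D2:**
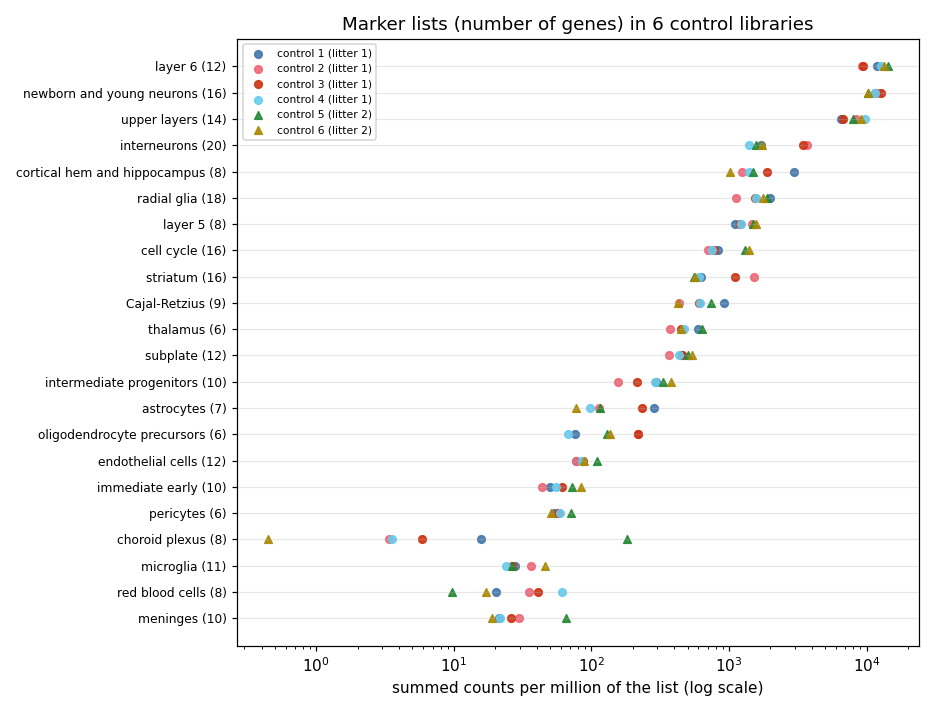
Summed CPM of each marker list in each control library, on a log axis, with the number of genes per list in brackets (circles litter 1, triangles litter 2). Controls 2 and 3 are highest for interneurons (3672 and 3461) and striatum, and control 5 for choroid plexus (181).

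Transcription factors were ranked within 19 families by CPM per kilobase of exon. Of 131 members, 110 reached a mean of 1 CPM. First members with high levels included Nfib of the nuclear factor I family (266 ± 50.1 CPM per kilobase of exon), Sox11 (200 ± 6.35), Myt1l (155 ± 17.7) and Tcf4 (129 ± 24.03, SD, n = 6). The same member came first in all 6 libraries in 13 families. The first member per kilobase of exon was also first per kilobase of gene span in 13 families.

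Clear orders included the MYT1 family, where Myt1l, a neuronal repressor of other fates, exceeded Myt1 (20.5 ± 2.42 CPM per kilobase of exon). Zeb2 (80.3 ± 10.1) stood above Zeb1 (25.4 ± 3.43). Among T-box genes, Tbr1 (38.2 ± 12.8) was above Eomes (21.1 ± 8.81) in every control, but narrowly at the least (ratio 1.06 to 5.43). Emx1, the gene whose promoter drives Cre in the mutants, had 21.9 ± 10.1 against 6.36 ± 3.17 for Emx2. Lhx2 (39.3 ± 12.6) led the LIM homeobox genes, ahead of Lhx6 (11.5 ± 1.71), a factor of interneurons. Pax6 (5.95 ± 1.76) was followed by Pax5 at 0.138, and Mef2c (36.4 ± 12.8) by Mef2a (15.2 ± 2.498).

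Other orders were not settled. Sox11, a neuronal SOX factor encoded by a single exon, and Sox5 (183 ± 50.7) exchanged places between libraries, with Sox11 first in 4 of 6, and Sox4 (123 ± 17.1) came next. Per kilobase of gene span Sox11 stayed first and Sox5 held rank 8. Bcl11b (78.2 ± 20.8) and Bcl11a (75.6 ± 10.8) differed by less than their spread, and Bcl11a came first per kilobase of span. Neurod6 (66.9 ± 20.5) and Neurod2 (58.2 ± 18.6), both factors of excitatory neurons, exchanged places in 1 library and by span. Nfib gave way to Nfix, Rora to Nr2f1 and Tcf4 to Id2 on the span scale. Dlx2 (9.52 ± 6.01) and Dlx1 (6.39 ± 4.24), markers of GABAergic lineages, overlapped.

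**Figure D3:**
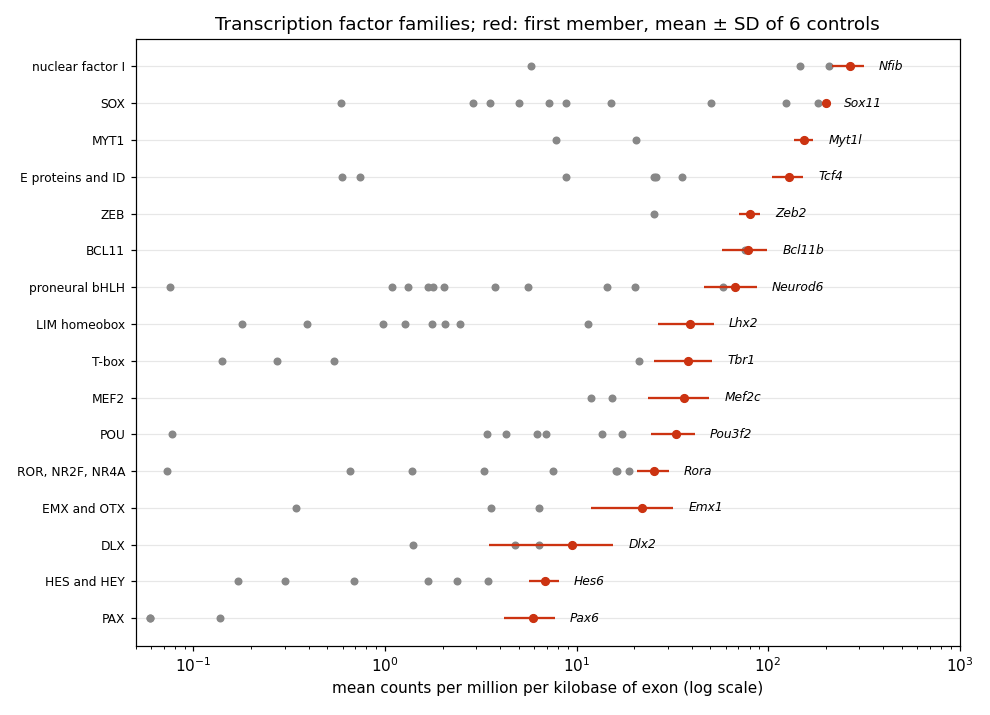
Mean CPM per kilobase of exon of the members of 16 of the 19 transcription factor families, on a log axis. Red points with bars give the first member (mean ± SD of 6 controls) and grey points the other members above 0.05. Nfib is highest at 266 and Pax6, the first of its family, stands at 5.95.

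The genes that varied most between controls were ranked by relative variance, the residual deviance of a gene over its degrees of freedom given the dispersion of genes of like abundance, among the 9030 genes that averaged 10 CPM or more. The median was 0.521 and the 90th percentile 2.07. The first 50 ran from Xist at 150 to Spock3 at 12.1, and the next gene, Vwc2l, had 12.0. Of the first 20, 5 were Xist, the RNA of the inactive X chromosome, and the Y-linked genes Uty, Kdm5d, Eif2s3y and Ddx3y.

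Controls 2 and 3 were above the other 4 in 28 of the 50 genes, against 13.98% of the 9030, and control 2 was the highest library in 27. The 50 were picked for variance among these same libraries, so these counts describe the list and test nothing. Some genes passed the mean of 10 CPM only through controls 2 and 3, such as Rxrg (mean 11.2, median 1.91 CPM). Rarb, a retinoic acid receptor of striatal neurons, had 1.22, 95.5, 46.4, 2.49, 5.73 and 8.05 CPM in controls 1 to 6. The retinoid receptor gene Rxrg had 0.813, 40.6, 21.7, 0.355, 1.146 and 2.68 CPM, and the opioid receptor gene Oprm1 2.44, 61.6, 32.8, 7.10, 3.44 and 4.47 CPM. Ebf1, Il1rapl2, Col25a1 and Fam19a1 were highest in the same pair. Of 21 ranked interneuron and striatum markers, 16 lay in the top 10% of relative variance. Some of these, such as Drd2 and Ikzf1, were ranked only through their levels in controls 2 and 3. High shares in the top 10% were not particular to these 2 lists. They were also seen for layer 6 (9 of 12), upper layers (8 of 13) and cortical hem and hippocampus (4 of 4). Shares were lower for layer 5 (1 of 5) and pericytes (0 of 3). When controls 2 and 3 were left out, 26 of the 50 remained among the first 50.

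Other leading genes followed different libraries. Slit3, a secreted guidance cue, had 820, 119, 376, 188, 205 and 63.0 CPM, and the noncoding Gm32647 269, 45.4, 129, 42.3, 25.2 and 20.6 CPM, both highest in control 1. Ttr was high in control 5 alone, and mt-Nd4, a subunit of mitochondrial complex I, in control 6 at 502 CPM against 42.0 to 148 CPM. Rprl3, annotated as a ribozyme, had 50.4, 23.7, 0, 48.0, 0 and 0.447 CPM. Adamtsl3, an ADAMTS-like matrix gene, was high in both litter 2 controls, at 165 and 127 CPM against at most 26.8 CPM in litter 1, and Gm28928 low in them, at 38.4 and 46.1 CPM against 166 to 389 CPM. Gm28928 did not pass the litter test below (edgeR adjusted p = 0.192). B020031H02Rik was highest in control 2 at 90.8 CPM. In the 6 mutant libraries, which the ranking had not used, 48 of the 50 genes (96%) were also in the top 10% of relative variance.

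**Figure D4:**
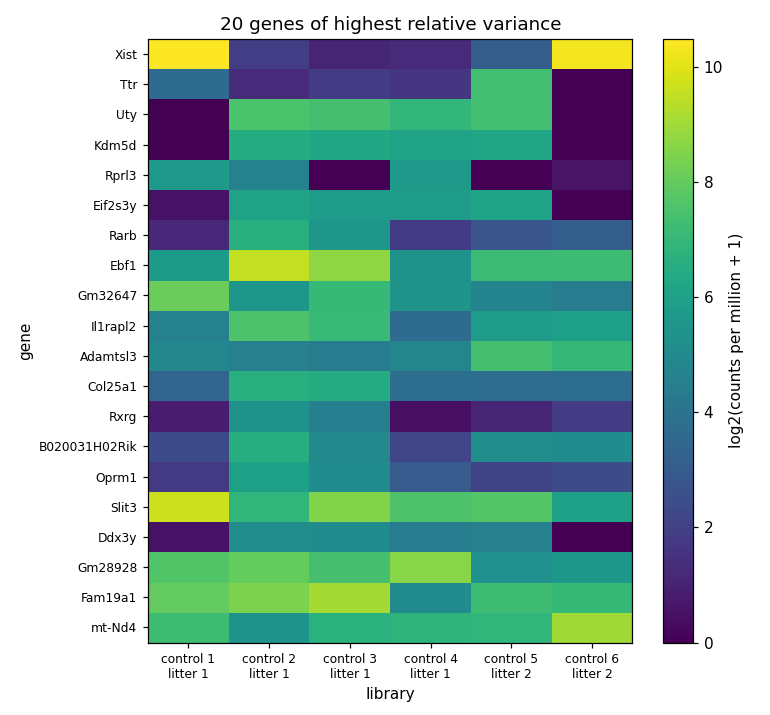
Level of the 20 genes of highest relative variance in each control library, as log2(CPM + 1) by colour. The Y-linked genes are near 0 in controls 1 and 6, Rarb, Ebf1, Rxrg and Oprm1 are highest in controls 2 and 3, and Adamtsl3 in controls 5 and 6.

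Litter 2 and litter 1 controls (n = 2 and n = 4) were compared in edgeR with a term for sex. Of 11492 genes tested, 16 were higher (0.139%) and 31 lower (0.27%) in litter 2 at an adjusted p under 0.05 (0.409% in either direction), and 1369 had an unadjusted p under 0.05. In all 47 the litters did not overlap, which held for 26.5% of the genes tested. Adamtsl3 rose by 2.57 on the log2 scale (SE 0.166, adjusted p = 0.000329, edgeR). Hmga2, a chromatin protein of early progenitors, had 14.6, 23.03, 14.7 and 22.02 CPM in litter 1 and 58.5 and 73.8 CPM in litter 2 (log2 1.83, adjusted p = 0.0343). The hyaluronan-binding gene Cemip rose by 1.84, the cell cycle genes Mybl2 by 1.59 and Hmgb2 by 1.18, the BMP receptor gene Bmpr1b by 1.30 and Tbr1 by 0.84. Ttc7 (1.81), Rmi2 (1.56), Hist1h1e (1.16) and Cdh4 (1.14) completed the 10 largest rises, Tbr1 being named for its layer.

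Among the genes lower in litter 2, Tnc had 305, 146, 226 and 214 CPM in litter 1 and 73.4 and 70.2 CPM in litter 2 (log2 -1.74, SE 0.233, edgeR adjusted p = 0.0343). Npr3, a natriuretic peptide receptor gene, fell by 3.54, the transporter gene Slco1c1 by 2.08, Jakmip3 by 2.08, A830018L16Rik by 1.89 and Fam174b by 1.73. Vav3 (-1.57), Hs6st3 (-1.50), Slc7a14 (-1.48) and Ptprr (-1.47) were the others of the 10 largest falls. By list, 16 of 16 cell cycle markers had a higher value in litter 2 (median log2 0.64, 1 called, Hmgb2) and 3 of 14 neuron markers did (median -0.26, none called), where 49.5% of all genes tested were higher and the median was near 0. These are 2 of 23 lists, and others leaned too, such as radial glia (15 of 17 higher in litter 2) and striatum (1 of 13). The only radial glia member called was Tnc, which was lower in litter 2. No list was tested as a set. The summed cell cycle list in controls was 1304 and 1390 CPM in litter 2 and 701 to 830 CPM in litter 1. In the mutants the litters overlapped, at 765 to 1458 CPM in litter 2 and 1143 and 1156 CPM in litter 1.

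The number of litter calls depended on single libraries and on the test. It was 1, 6, 3, 217, 0 and 2 with control 1, 2, 3, 4, 5 or 6 left out in turn, and 0 without controls 2 and 3. Adamtsl3 had an adjusted p between 9.55e-48 and 0.0767 over 13 alternatives and was under 0.05 in 11. Each of the other 19 named litter genes was under 0.05 in only 5 or 6 of the 13. In the mutants, fitted with the same terms, 40 of the 44 called genes with a value had the same sign, against 57.1% of all genes, and Tnc was called (log2 -2.15, edgeR adjusted p = 3.36e-05). Tnc was 1 of 2 genes called in the mutants among 9696 tested. Adamtsl3, at 2.57 in controls, had 0.96 in the mutants (edgeR adjusted p = 0.0653). The mutant litters did not overlap in the same direction in 14 of the 47 called genes, against 12.3% of all genes.

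**Figure D5:**
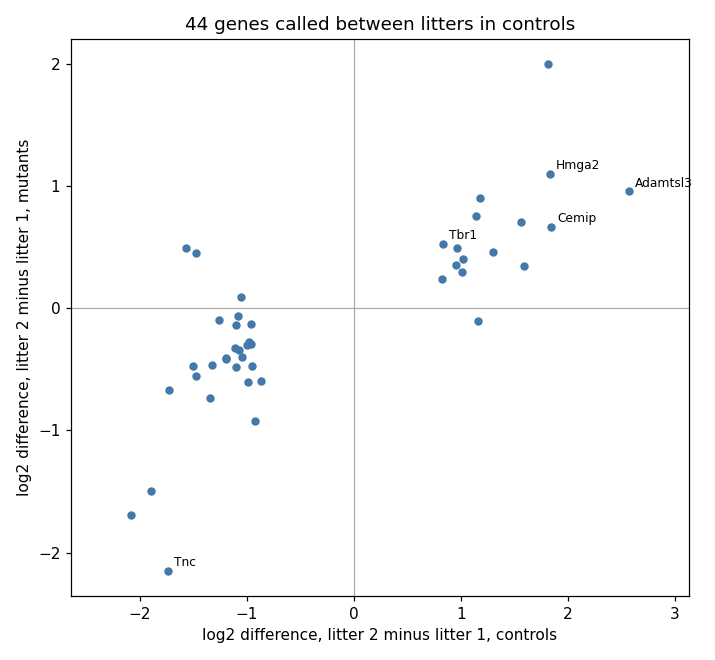
Log2 difference of litter 2 minus litter 1 in the controls (horizontal) and in the mutants (vertical) for the 44 genes called in controls that could be fitted in both. 40 points lie in the 2 quadrants of equal sign. Tnc is lowest in the mutants at -2.15 and Adamtsl3 has the highest value in controls at 2.57.

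Between male and female controls (n = 4 and n = 2), with litter as a term, 4 genes were higher in males (0.0348%) and 1 lower (0.0087%), 0.0435% in all. In these 5 the sexes did not overlap, as in 9.93% of the genes tested. Uty had 179, 169, 122 and 162 CPM in the males and 0 in both females (edgeR adjusted p = 3.56e-05), and Kdm5d, Eif2s3y and Ddx3y, the other Y-linked genes called, were at most 0.407 CPM in females. Xist had 1429 and 1269 CPM in the females and 1.11 to 7.45 CPM in the males (log2 -8.82, SE 0.428, edgeR adjusted p = 0.00241). All 6 libraries matched their labelled sex.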

How the data were processed

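Per the labels' protocols, 600 ng of total RNA per library was depleted of rRNA and made into ClickSeq libraries, which carry random molecular tags. The submitters' processing notes list edgeR 3.20.9, HTSeq 0.6.1p1, STAR 2.5.2a, cutadapt 1.13, UMI-tools 0.5.3 and bcl2fastq 2.17, with build mm10. Feature type, strand setting and annotation release were not given in the sources used here. As deposited, the files hold raw counts for 51912 genes, not normalized by the authors, and 5 closing entries that name no gene. Those entries were left out (non-unique alignments 13.6 to 19.6% and no feature 4.91 to 5.48% in controls). Of the identifiers, 47734 matched GENCODE M21 with their version, 3985 without it and 193 not at all. CPM scales each count to its library's total gene count. Litter and sex were tested in edgeR 4.0.16 (R 4.3.3): filterByExpr (minimum count 10), TMM, terms for sex and litter, robust quasi-likelihood, Benjamini-Hochberg adjustment over 11492 genes, threshold 0.05, 3 residual degrees of freedom. The litter fit was also run on simulated data with the controls' depths and a common dispersion of 0.0282 (11398 genes). It recovered 54 of 97 genes changed 2-fold and 91 of 98 changed 4-fold, with 3 false calls. These numbers hold for that setting only, and data with a dispersion that differs between genes was not tested. DESeq2 1.42.0 and limma 3.58.1 were alternatives.

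Named genes are the 20 coding and 15 noncoding genes of highest mean, up to 4 leading members per marker list, the first 3 per family, the 20 of highest relative variance, up to 10 litter or sex calls each way, and 7 layer or progenitor genes. Other names, such as single members at 0 or under 1 CPM, were added after their values were seen. Members, lists and tests were chosen with earlier results of these data known. Each library is 1 labelled sample, and p-values measure the spread between these samples. A few genes that this rule names are not reported here.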

Additional observations from a re-analysis of the deposited data

Results flagged for a closer look

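Over the 6 controls, a value was singled out where the gap between the highest or lowest library and its neighbour took a larger share of the whole range than Dixon's 95% limit for 6 samples. Of 135 values examined, 15 passed. Chance alone flags about 1 in 20 groups, a rate that does not apply to the 3 (Ttr, mt-Nd4 and B020031H02Rik) that had been chosen for high variance between these libraries. Control 5 stood alone in the summed choroid plexus list (181 CPM), in Ttr (164 CPM), in the meninges list (65.3 CPM) and in the endothelial list (109 CPM). Control 6 stood alone in mt-Rnr1 (4097 CPM), mt-Nd4 (502 CPM) and Gm42418 (1611 CPM). Control 2 was alone at the top in B020031H02Rik (90.8 CPM), Gm4258 (729 CPM), Zswim6 (788 CPM), Foxp1 (736 CPM) and Pax5 (4.74 CPM), and at the bottom in Nrg1 (3372 CPM). Control 4 was highest in Frmd4a (4992 CPM) and lowest in Tcf12 (438 CPM).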

How the results depend on the processing

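No paired analysis was possible because replicate numbers only name libraries, and litter is given in place of a block: permuted within litter, the progenitor to neuron difference was -0.27 (exact permutation p = 0.289). The 47 litter calls became 115 with DESeq2, 3 with limma-voom, 491 with no filter, 2 without robust estimation, 114 without the sex term, 46 without TMM, 0 to 217 when 1 control was left out, 0 without controls 2 and 3 (1 residual degree of freedom) and 2 in the mutants. Leaving out control 5 or 6 leaves 1 litter 2 sample, assumed to vary like the others. The 20 named litter genes kept their sign in all values computed, and sex calls were 8 with no filter and 4 to 6 when 1 control was left out. Of the 20 coding genes, 7 remained per kilobase of exon and 0 per kilobase of span, and of the 15 noncoding genes 8 and 5. Of the 50 variable genes, 32 remained by CV, 31 at a mean of at least 50 CPM and 26 without controls 2 and 3. Markers at 1 CPM or more numbered 204, and 161 reached 5 CPM. The progenitor to neuron difference ran from -0.37 to -0.17 when 1 control was left out. Means of all 186 named genes stayed within 1 SD under TMM, another denominator and each left-out control. The alternatives within litter, without controls 2 and 3, in the mutants and without rRNA genes were chosen after seeing the data. Depth limits genes near 1 CPM, which is under 3 counts in every control.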

Other observations

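At the other end of the variance ranking stood genes with nearly the same level in every control. Gpm6b, a neural membrane proteolipid, had 542, 543, 531, 540, 552 and 555 CPM in controls 1 to 6, a coefficient of variation of 1.59%. Fyn, a kinase of axon and myelin signalling, had 553 ± 12.4 CPM (SD, n = 6) and the histone acetyltransferase gene Ep300 187 ± 5.32 CPM. The cytoskeletal linker gene Macf1 had 1489 ± 34.2 CPM and the exocyst gene Exoc4 822 ± 25.4 CPM. Tuba1c, an alpha-tubulin gene among the 50 most variable, had 5.16 CPM in control 5 and 55.1 to 108 CPM in the other controls. These genes were picked after their values were seen.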
